A study of Mus musculus with 12 samples.

Results

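The genes described here encode the cytosolic factors that start and elongate protein synthesis, chosen by name: every gene whose symbol begins with Eif1 to Eif6 or with Eef1 or Eef2, without Eif4ebp1, the Y-linked Eif2s3y and pseudogene names. Of 53090 gene rows, 66 matched, and 63 of these had a summed count of at least 100 over the 12 libraries. All 63 were tested. The other 3 were Eef1akmt3 (82 counts in all), Eif2c5, an Argonaute-type name (12 counts), and Eif4e1b, a cap-binding relative (7 counts). RNA was recovered from mouse retina (strain C57BL/6) by immunoprecipitation through an HA tag on ribosomes, and the labelled cell type is retinal pericytes, contractile cells on the wall of capillaries. There were 6 libraries at postnatal day 3 (P3) and 6 at postnatal day 9 (P9). All animals had received tamoxifen on postnatal days 1 and 2, so the time since tamoxifen was longer at P9 and cannot be told apart from age. What drives the tag is not stated in the sources used here. Nor do the labels tell whether each library is another animal; the p-values then reflect only how far these libraries vary, some of which may be technical.

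Translation initiation loads the small ribosomal subunit with initiator tRNA carried by eIF2. The subunit is kept open for scanning with eIF1, eIF1A and the many-subunit eIF3. It is brought to the mRNA cap through eIF4F, which joins the cap-binding eIF4E, the scaffold eIF4G and the helicase eIF4A. eIF5, the GTPase-activating partner of eIF2, acts at start codon recognition. eIF5B then joins the large subunit, eEF1A delivers each aminoacyl-tRNA, eEF2 moves the ribosome along and eIF5A relieves stalling. Cells tune the process through kinases that phosphorylate eIF2 alpha and through 4E-binding proteins, which release eIF4E when mTOR, a kinase downstream of PI3K, phosphorylates them. Several factors exist as paralog pairs, among them eEF1A1, the common form, and eEF1A2, the form of mature neurons and muscle.

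Library totals ran from 26839599 expected counts (P3 replicate 3) to 37776172 (P9 replicate 2); an expected count is the estimated number of reads of a gene. Levels are given as CPM, counts scaled to a common library size with TMM factors. At 1 CPM a gene rests on 25.8 to 38.5 counts per library, and CPM is not corrected for gene length, so levels of different genes were not compared. For some members described below, such as Eif4a2 and Eif5b, P3 replicates 4 and 5 lay nearer to P9 than the other P3 libraries. For others, such as Eef1a1 and Eif4ebp2, they lay farther from it, together with replicate 6. In several members P3 replicates 1 to 3 all lay below replicates 4 to 6. Examples are Eif1 (131 to 137 and 164 to 174 CPM), Eif4g2 (1213 to 1295 and 1457 to 1653) and Eef2 (971 to 1053 and 1113 to 1305). In Eif4g1 they all lay above. No fit left out P3 replicates 4 to 6 together, so the effect of this split was not tested. The summed pericyte markers of P3 replicates 4 and 5 were 1211 and 1343 CPM, against 360.5 to 677 in the other P3 libraries. Rod sums were 1538 and 1358 CPM against 537 to 880, and Müller glia sums 1335 and 1395 against 971 to 1169. Progenitor sums were below the other P3 libraries and endothelial sums above them. The remaining marker sums overlapped. Markers of retinal cell types also differed by age. Their sums were 360.5 to 1343 CPM at P3 and 2832 to 6377 at P9 for 12 pericyte genes, of which 11 rose. Those of 8 rod photoreceptor genes, all of which rose, were 537 to 1538 CPM at P3 and 5288 to 12742 at P9. The sums of 8 genes each were 1343 to 1898 CPM at P3 and 806 to 1017 at P9 for retinal progenitors (7 fell, 1 rose), 4256 to 10552 CPM at P3 and 39.6 to 901 at P9 for lens (8 fell) and 848 to 1024 CPM at P3 and 669.5 to 747 at P9 for endothelium (5 rose and 1 fell, Kdr, which held most of that sum). For ganglion cells they were 271 to 326 CPM at P3 and 482 to 759 at P9 (6 rose, 1 fell), for bipolar and amacrine cells 694 to 846 CPM at P3 and 1607 to 2194 at P9 (5 rose, 2 fell), for Müller glia 971 to 1395 CPM at P3 and 1227 to 1916 at P9 (5 rose, 1 fell) and for red cells 18.8 to 88.2 CPM at P3 and 160.5 to 1586 at P9 (5 of 5 tested rose). No marker of these lists was at 0 in all libraries. The part of these other cells in the results below was not tested, and fewer cells of a type cannot be told apart from less RNA per cell.

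Most translation factor genes changed little between P3 and P9. Of the 63, 8 rose, 15 fell and 40 missed an adjusted p of 0.05 (edgeR's quasi-likelihood test, adjusted over 18638 genes). The members called were thus 36.5%, where 51.8% of all tested genes were called (26.1% rose and 25.6% fell). These shares of all tested genes are also the background for the counts of each role below. Among genes averaging 10 CPM or more, 37.3% of 59 members and 63.2% of 10963 genes were called. A called change of at least 2-fold was seen for 2 of the 63, Eef1a2 and Eif4e3, or 3.17%, against 18% of all tested genes. Above 10 CPM it was 1 of 59 members, 1.69%, against 14.4% of genes. Which members pass 2-fold turns on the setting. The log2 fold change of Eif4e3 lay between 0.92 and 1.15 over the alternatives. Eif5b fell by 2.23-fold without P3 replicates 4 and 5. The median size of the log2 fold change, without its sign, was 0.15 over the members, 0.44 over all genes and 0.36 over genes above 10 CPM. The signed median was -0.011 for the members and -0.0018 for all genes. The P3 and P9 values were fully separated for 13 members (20.6%), against 31.7% of all genes and 41.3% of those above 10 CPM. For 37 of the 40 members that did not pass, the 95% interval of the log2 fold change lay within 0.5 either way, that is within a 1.41-fold change. The exceptions were Eif2ak2 (-0.53 to 0.14), Eif4ebp3 (-0.50 to 0.56) and Eef1akmt1 (0.00 to 1.05), which are among the 4 tested members under 10 CPM. The summed CPM of all 63 ran from 11258 to 12900.5 at P3 and from 10139 to 10967 at P9, or 1.19% and 1.05% of scaled counts on average. Eef1a1, Eif4g2 and Eef2 held the most counts at both ages.

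**Figure D1:**
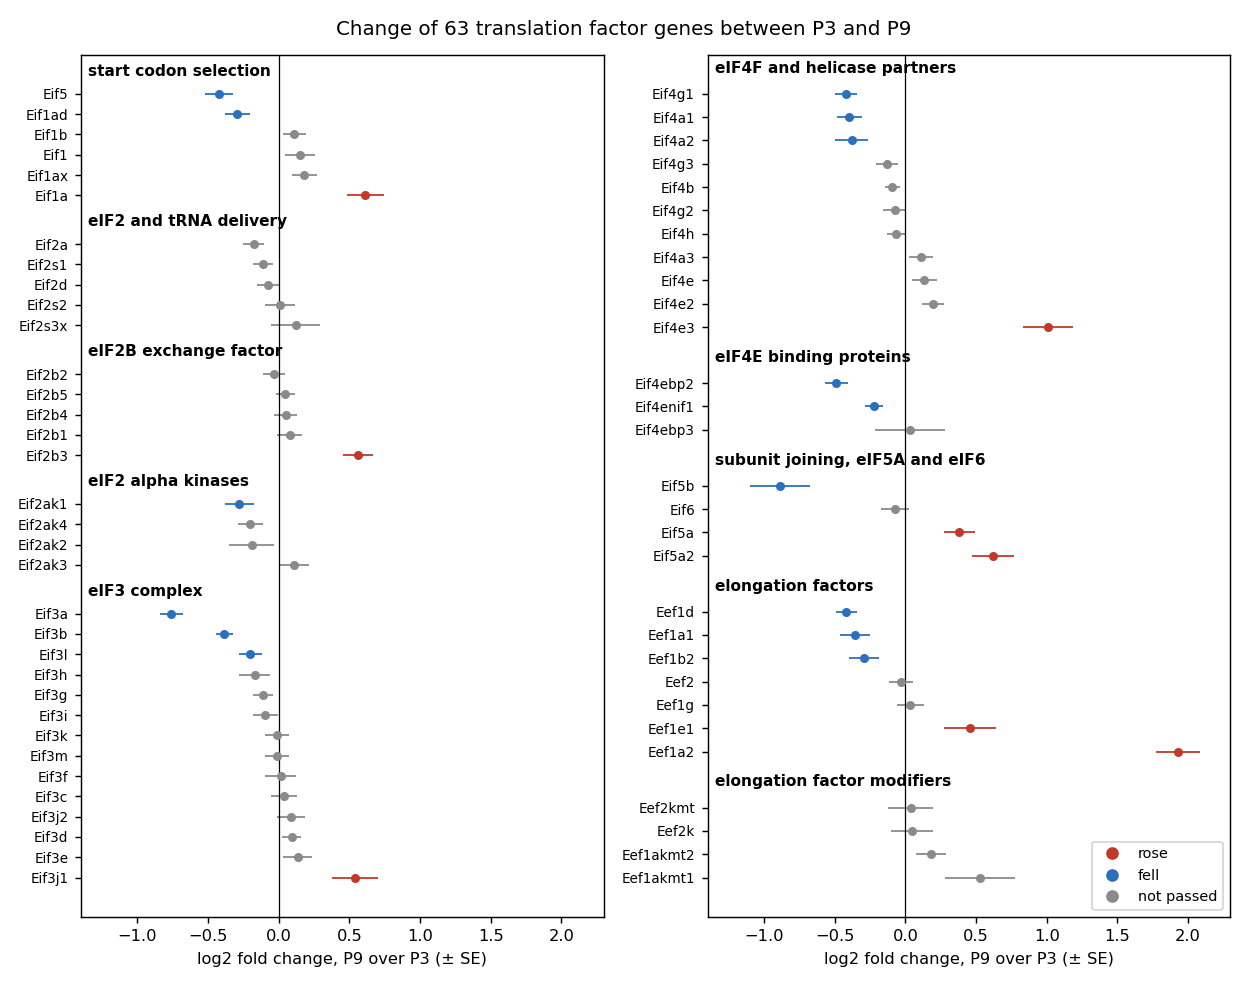
Log2 fold change of P9 over P3 (points, with the standard error as bars) for the 63 tested translation factor genes, grouped by role; red points rose, blue fell and grey did not reach an adjusted p of 0.05. Most points lie within 0.5 of 0, with Eef1a2 at 1.93 and Eif4e3 at 1.01 to the right and Eif5b at -0.89 and Eif3a at -0.76 to the left.

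**Figure D2:**
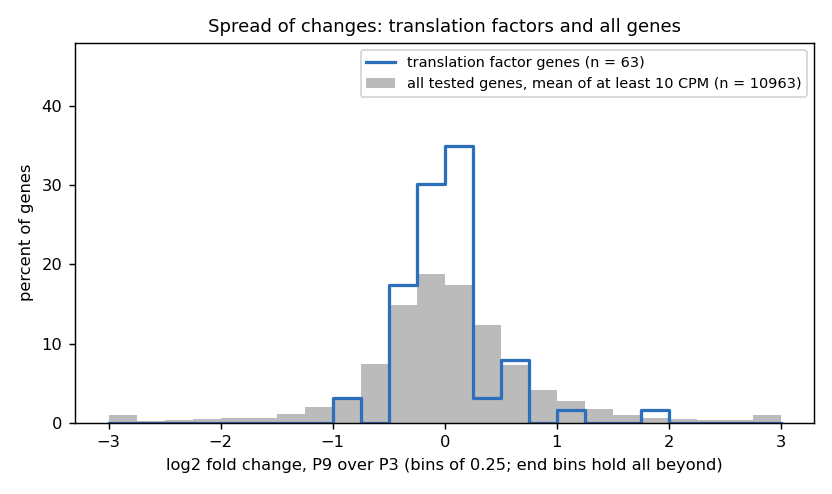
Percent of genes (vertical axis) by log2 fold change of P9 over P3 in bins of 0.25 (horizontal axis), for the 63 translation factor genes (blue line) and the 10963 tested genes that average 10 CPM or more (grey bars). The blue line is higher than the bars near 0 and lower in the tails; 85.7% of the members and 63.4% of the other set had a change of less than 0.5 in size.

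Among the factors of scanning and start codon choice, 1 of 6 rose, 2 fell and 3 did not pass. Eif1a (ENSMUSG00000057561.9, chromosome 18, 46597704 to 46610225 in GRCm38.p6), the autosomal copy of eIF1A, which holds the scanning subunit open, ran from 21.2 to 34.2 CPM with a median of 26.4 in the 6 P3 libraries, and from 37.8 to 45.5 with a median of 42.2 at P9. The ages did not overlap, but the P3 libraries split, with replicates 1 to 3 at 21.2 to 22.1 CPM and replicates 4 to 6 at 30.6 to 34.2. The mean went from 27.2 ± 6.36 to 41.7 ± 2.96 CPM (SD, 6 libraries each; a log2 fold change of 0.61 ± 0.13, SE, with an adjusted p of 0.00123). Its X-linked paralog Eif1ax had a lowest, median and highest level of 59.3, 74.9 and 83.8 CPM at P3, against 75.0, 83.7 and 88.6 at P9. Those ranges overlapped and the difference did not pass (log2 fold change 0.18, adjusted p = 0.0987), although it did without P3 replicates 4 and 5 (adjusted p = 0.0402).

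Eif5, the GTPase-activating partner of eIF2 that acts at start codon recognition, stood between 287 and 409 CPM at P3 (median 341) and between 217 and 283 CPM at P9 (median 266). Every P3 library lay above every P9 library, P3 replicate 4 by the least, and the level was 1.34-fold lower at P9 (log2 fold change -0.42, adjusted p = 0.00198). The other that fell was Eif1ad, which carries an eIF1A-like domain, by 1.23-fold from a mean of 30.6 CPM (adjusted p = 0.0107). It no longer passed when P9 replicates 5 and 6 were both left out (adjusted p = 0.0655). Eif1, which guards against wrong start codons, ran from 131 to 174 CPM with a median of 151 in the 6 P3 libraries, and from 133 to 195 with a median of 165 at P9. Its paralog Eif1b had a lowest, median and highest level of 37.5, 45.9 and 52.8 CPM at P3, against 43.9, 50.7 and 52.3 at P9. Neither passed, with log2 fold changes of 0.15 (95% interval -0.08 to 0.38) and 0.11 (-0.07 to 0.29).

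None of the 5 genes of eIF2 and tRNA delivery passed edgeR's threshold, with adjusted p between 0.0644 and 0.95. DESeq2 and limma-voom called 0 of them too, and 1 of the 5, Eif2a, had an unadjusted p under 0.05 (0.0349). Eif2s1, which encodes the eIF2 alpha subunit that stress kinases phosphorylate, stood between 35.7 and 44.8 CPM at P3 (median 39.2) and between 33.5 and 39.5 CPM at P9 (median 36.9). The ages overlapped, and the log2 fold change was -0.11 (95% interval -0.27 to 0.04). Eif2s2, the beta subunit, was at 68.1 and 68.5 CPM on average. Eif2s3x, the X-linked gamma subunit, had the widest spread within an age of these genes, from 105 to 209.7 CPM at P3 and 123 to 215 at P9. Its expected counts were not whole numbers in any library, as RSEM gives where reads fit more than 1 gene. Eif2a and Eif2d, which can deliver initiator tRNA without eIF2, had log2 fold changes of -0.18 and -0.08.

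Of the 5 subunits of eIF2B, the exchange factor that recharges eIF2 with GTP, Eif2b3 rose and 4 did not pass. Eif2b3 (ENSMUSG00000028683.14, chromosome 4, 117019399 to 117086852), the gamma subunit of the catalytic part, ran from 13.6 to 17.0 CPM with a median of 14.1 in the 6 P3 libraries, and from 18.01 to 25.03 with a median of 21.4 at P9. The lowest P9 library was P9 replicate 4, just above the highest P3 library, replicate 4. The mean rose from 14.8 ± 1.51 to 21.9 ± 2.65 CPM (SD, 6 libraries each; a log2 fold change of 0.56 ± 0.10, SE, with an adjusted p of 0.000362). The other subunits, Eif2b1, Eif2b2, Eif2b4 and Eif2b5, had log2 fold changes between -0.04 and 0.08, and the widest of their 95% intervals ran from -0.11 to 0.27. Whether Eif2b3 differed from its partners was not tested.

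Of the 4 kinases that phosphorylate eIF2 alpha, 1 fell and 3 did not pass. Eif2ak1, the heme-regulated kinase, fell by 1.21-fold from 37.0 ± 3.18 to 30.5 ± 4.61 CPM (adjusted p = 0.0318). Its ages overlapped, and it missed the threshold without P3 replicate 2, 4, 5 or 6 or P9 replicate 1, 4, 5 or 6 (adjusted p from 0.0506 to 0.0722). Eif2ak2, the double-stranded RNA sensor PKR, was near 9.26 CPM at P3 and 7.45 at P9. Eif2ak3, the endoplasmic reticulum stress kinase PERK, had a log2 fold change of 0.11, and Eif2ak4, the amino acid sensor GCN2, of -0.20; the latter passed without P3 replicate 6 (adjusted p = 0.0148).

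The genes of eIF3, the largest initiation factor, were mostly not called. Of 14, 3 fell, 1 rose and 10 did not pass, so that 28.6% were called against 51.8% of all tested genes. Log2 fold changes ran from -0.76 to 0.54 around a median of -0.012. The 2 genes whose ages did not overlap were Eif3a and Eif3b, which encode the large subunits around which the complex is built. Eif3a (ENSMUSG00000024991.7, chromosome 19, 60761116 to 60790693) stood between 349 and 454 CPM at P3 (median 368) and between 210.1 and 248 CPM at P9 (median 224). Its lowest P3 library, replicate 4, was 349 CPM, well clear of the highest at P9. The mean fell from 387 ± 40.9 to 229 ± 16.4 CPM (SD, 6 libraries each; a log2 fold change of -0.76 ± 0.081, SE, with an adjusted p of 2.54e-06), the smallest adjusted p of any member that fell. Eif3b (ENSMUSG00000056076.13, chromosome 5, 140419305 to 140443358) ran from 139 to 149 CPM with a median of 144 in the 6 P3 libraries, and from 101 to 121 with a median of 109 at P9. The P3 libraries were close together, with an SD of 3.96 CPM, and the level was 1.31-fold lower at P9 (log2 fold change -0.39 ± 0.060, SE; adjusted p = 8.15e-05). Eif3c, another large subunit, had a log2 fold change of 0.04 (95% interval -0.16 to 0.24); its expected counts were not whole in any library.

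The remaining core subunits differed little between the ages. Eif3d, which can itself bind the cap, Eif3e, Eif3f, Eif3g, Eif3h, Eif3i, Eif3k and Eif3m had log2 fold changes between -0.17 and 0.13, and none passed. Eif3f and Eif3h, a pair of related MPN-domain subunits, were each split within P3, replicates 1 to 3 lying below replicates 4 to 6: Eif3f at 73.5 to 79.7 and 97.6 to 112 CPM, Eif3h at 80.5 to 86.6 and 109.7 to 115 CPM. Eif3l fell by 1.15-fold (adjusted p = 0.0482) with overlapping ages and missed the threshold without P3 replicate 3, 4, 5 or 6 or P9 replicate 2, 4, 5 or 6 (adjusted p from 0.0610 to 0.122) and with library totals only (adjusted p = 0.0683). Eif3j, the loosely bound subunit, is encoded by 2 near-identical mouse genes whose reads RSEM divided by its model, so each level is uncertain. Eif3j1 ran from 9.88 to 19.5 CPM with a median of 16.2 in the 6 P3 libraries, and from 18.3 to 27.5 with a median of 21.9 at P9, and rose by 1.45-fold (adjusted p = 0.0129). Eif3j2 had a lowest, median and highest level of 28.6, 35.6 and 39.5 CPM at P3, against 29.8, 39.0 and 40.6 at P9, and did not pass (log2 fold change 0.09). Overlap of Eif3j1 between the ages was slight, P9 replicate 6 at 18.3 CPM lying below P3 replicates 1 and 5.

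Of the 11 genes of eIF4F and its helicase partners, 1 rose, 3 fell and 7 did not pass. The riser was Eif4e3 (ENSMUSG00000093661.1, chromosome 6, 99621879 to 99692873), an unusual member of the cap-binding family. It ran from 3.603 to 6.45 CPM with a median of 5.75 in the 6 P3 libraries, and from 7.85 to 14.1 with a median of 10.9 at P9. Every P9 library was above the highest P3 library, and the mean rose 2.01-fold from 5.36 ± 1.16 to 10.8 ± 2.14 CPM (SD, 6 libraries each; a log2 fold change of 1.01 ± 0.18, SE, with an adjusted p of 0.000245). Eif4e, the main cap-binding protein, had a lowest, median and highest level of 57.2, 72.5 and 87.3 CPM at P3, against 73.0, 78.4 and 85.9 at P9, with overlap between the ages and a log2 fold change of 0.13 (95% interval -0.06 to 0.33). Eif4e2, the relative that represses translation, had a log2 fold change of 0.20 and just missed the threshold (adjusted p = 0.0559). It passed once replicate 4 or 6 of P3 or replicate 4 of P9 was left out (adjusted p of 0.0404, 0.0426 and 0.0205) and with only genes above 10 CPM tested (0.0339).

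Eif4g1 (ENSMUSG00000045983.15, chromosome 16, 20672720 to 20692883), the main scaffold of eIF4F, ran from 455 to 589 CPM with a median of 494 in the 6 P3 libraries, and from 359 to 409 with a median of 381 at P9. All P3 libraries were above all P9 libraries. The mean fell from 514 ± 53.3 to 384 ± 20.8 CPM (SD, 6 libraries each; a log2 fold change of -0.42 ± 0.078, SE, with an adjusted p of 0.000391). Eif4g3, its fellow scaffold, stood between 481 and 641 CPM at P3 (median 516) and between 442 and 519 CPM at P9 (median 489.7), and did not pass (log2 fold change -0.13, adjusted p = 0.182). Eif4g2, a scaffold relative that does not bind eIF4E, had a lowest, median and highest level of 1213, 1376 and 1653 CPM at P3, against 1284, 1332 and 1349 at P9. Its P9 values were unusually close together and lay inside the P3 range, with a log2 fold change of -0.07 (95% interval -0.25 to 0.10).

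Both main eIF4A helicases fell. Eif4a1 ran from 417 to 564 CPM with a median of 493 in the 6 P3 libraries, and from 321 to 418 with a median of 372 at P9, so that only the highest P9 library, replicate 3, reached the lowest P3 library, replicate 4. It was 1.32-fold lower at P9 (log2 fold change -0.40, adjusted p = 0.00146). Eif4a2 had a lowest, median and highest level of 499, 693 and 778 CPM at P3, against 454, 492 and 572 at P9. Its low P3 libraries were again replicates 4 and 5, at 508 and 499 CPM, inside the P9 range. The fall was 1.30-fold (adjusted p = 0.0119) and 1.45-fold without these 2 libraries (adjusted p = 7.3e-05). The counts of both helicases were not whole in any library. Eif4a3, a relative that serves the exon junction complex, did not pass (log2 fold change 0.11; without P3 replicates 4 and 5, 0.21 with an adjusted p of 0.0422). The helicase partners Eif4b and Eif4h had log2 fold changes of -0.09 and -0.07, with 95% intervals of -0.21 to 0.02 and -0.20 to 0.07.

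Among proteins that bind and hold eIF4E, Eif4ebp2 and Eif4enif1 fell. Eif4ebp2 (ENSMUSG00000020091.15, chromosome 10, 61428491 to 61452790), the 4E-binding protein prominent in neurons, ran from 143 to 179 CPM with a median of 161 in the 6 P3 libraries, and from 105 to 129 with a median of 114 at P9. The ages did not overlap. Within P3, replicates 4 to 6 were the higher libraries at 172 to 179 CPM and replicates 1 to 3 the lower at 143 to 150.2. The mean fell from 161 ± 16.7 to 114 ± 8.69 CPM (SD, 6 libraries each; a log2 fold change of -0.49 ± 0.080, SE, with an adjusted p of 0.000134). The fall of Eif4ebp2 was 1.40-fold in all libraries and 1.33-fold without P3 replicates 4 and 5 (edgeR adjusted p = 0.000827). Eif4enif1, which carries eIF4E to the nucleus and to processing bodies, fell by 1.17-fold without overlap, from 98.1 ± 5.62 to 83.9 ± 4.74 CPM (adjusted p = 0.00805). Eif4ebp3 stood near 3.70 CPM at P3 and 3.78 at P9, with a 95% interval of -0.50 to 0.56 for the log2 fold change.

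**Figure D3:**
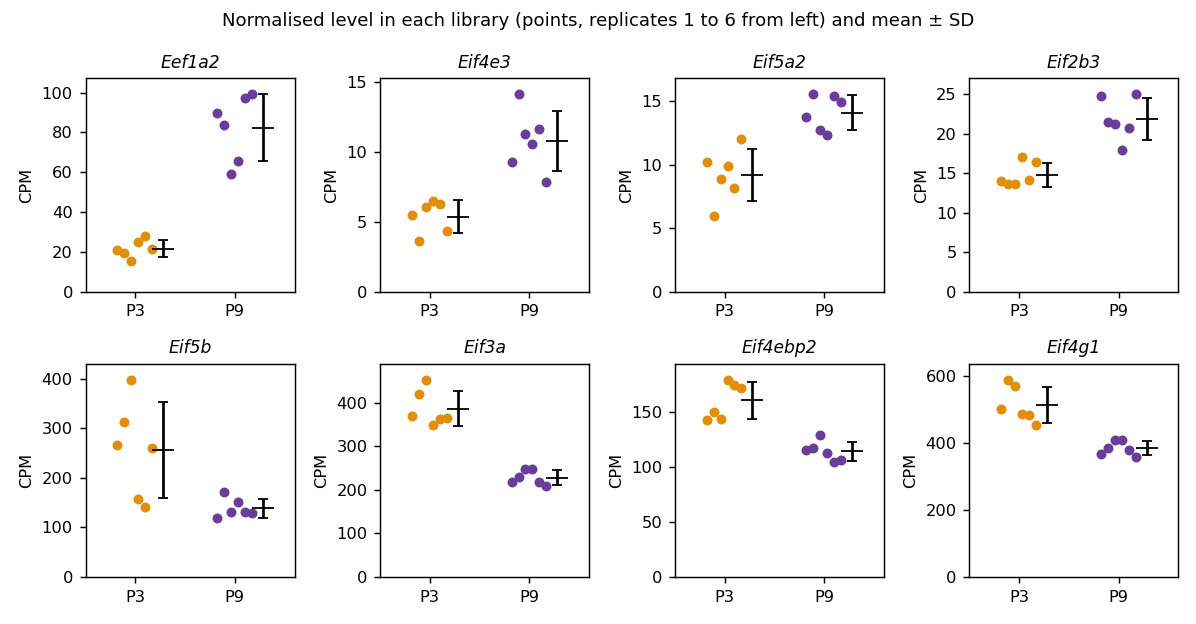
Level in CPM (vertical axes, from 0) of 8 members in each library, P3 in orange and P9 in purple, with replicates 1 to 6 from left to right and the mean ± SD beside them in black. The 4 genes in the upper row are higher in every P9 library than in any P3 library; in the lower row only Eif5b overlaps, through P3 replicates 4 and 5.

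Among the late-acting factors, Eif5b fell while both eIF5A genes rose. Eif5b (ENSMUSG00000026083.12, chromosome 1, 37998010 to 38055579), the GTPase that joins the ribosomal subunits, ran from 141 to 399 CPM with a median of 264 in the 6 P3 libraries, and from 118 to 171 with a median of 131 at P9. Its P3 libraries were spread widely: replicate 3 was highest at 399 CPM, replicates 1, 2 and 6 lay between 261 and 313, and replicates 4 and 5, at 157 and 141, fell inside the P9 range. The mean went from 256 ± 96.8 to 139 ± 19.0 CPM (SD, 6 libraries each; a log2 fold change of -0.89 ± 0.21, SE, with an adjusted p of 0.00251), 1.85-fold lower at P9. Without P3 replicates 4 and 5 the fall was 2.23-fold (adjusted p = 7.95e-06).

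Eif5a (ENSMUSG00000078812.10, chromosome 11, 69916712 to 69921958), the only protein known to carry the amino acid hypusine together with its paralog, ran from 98.2 to 149.5 CPM with a median of 119.5 in the 6 P3 libraries, and from 149.9 to 188 with a median of 151 at P9. The ages were separated by a narrow gap, from P3 replicate 4 at 149.5 CPM to P9 replicate 5 at 149.9. It rose by 1.30-fold (log2 fold change 0.38 ± 0.11, SE; adjusted p = 0.0091). Eif5a2 (ENSMUSG00000050192.8, chromosome 3, 28781032 to 28798846), the paralog of narrower expression, stood between 5.99 and 12.01 CPM at P3 (median 9.35) and between 12.3 and 15.6 CPM at P9 (median 14.3). Here too the ages did not overlap, and the rise was 1.54-fold (log2 fold change 0.62 ± 0.15, SE; adjusted p = 0.00255). Eif6, which keeps the large subunit from joining too early, had a lowest, median and highest level of 29.0, 33.6 and 37.2 CPM at P3, against 26.4, 31.8 and 37.9 at P9, with no difference past the threshold (log2 fold change -0.07, 95% interval -0.28 to 0.14).

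The largest change of any member was in the elongation factors, where Eef1a2 rose and Eef1a1 fell. Of 7 genes, 2 rose, 3 fell and 2 did not pass. Eef1a2 (ENSMUSG00000016349.10, chromosome 2, 181141758 to 181157015) ran from 15.5 to 27.8 CPM with a median of 21.0 in the 6 P3 libraries, and from 59.0 to 99.2 with a median of 86.7 at P9. The lowest P9 library, replicate 3, was far above the highest at P3, replicate 5. The mean rose from 21.6 ± 4.37 to 82.4 ± 16.7 CPM (SD, 6 libraries each; a log2 fold change of 1.93 ± 0.16, SE, with an adjusted p of 2.21e-07), 3.81-fold. Its expected counts were whole in all 12 libraries. Eef1a1 (ENSMUSG00000037742.14, chromosome 9, 78478453 to 78481724) had a lowest, median and highest level of 2176, 2681 and 3209.9 CPM at P3, against 1943, 2075 and 2357 at P9. P3 replicates 2 and 3 lay within the P9 range, whereas P3 replicate 1, at 2538 CPM, and replicates 4 to 6, at 3157, 2824 and 3209.9 CPM, were above it. It fell by 1.28-fold (log2 fold change -0.36 ± 0.11, SE, adjusted p = 0.0108). Without P3 replicates 4 and 5 the fall was smaller, 1.21-fold (edgeR adjusted p = 0.0465). Its counts were not whole in any library; the gene has many processed copies in the genome, which share its sequence. Neurons and muscle are the known sites of eEF1A2; in these libraries the summed ganglion cell markers were 271 to 326 CPM at P3 and 482 to 759 at P9, those of bipolar and amacrine cells 694 to 846 CPM at P3 and 1607 to 2194 at P9, those of rods 537 to 1538 CPM at P3 and 5288 to 12742 at P9 and those of pericytes 360.5 to 1343 CPM at P3 and 2832 to 6377 at P9. Their part in the rise of Eef1a2 was not tested.

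The stretches of 120 bases just upstream of the RefSeq starts of these 2 genes are shown because the paralogs moved in opposite directions; both lie on the minus strand of GRCm38.p6, at chr9:78481725-78481844 for Eef1a1 and chr2:181157016-181157135 for Eef1a2, and capitals mark matches to GGGCGG (a GC box), CCAAT or TATAAA, the first and second on either strand.
Eef1a1: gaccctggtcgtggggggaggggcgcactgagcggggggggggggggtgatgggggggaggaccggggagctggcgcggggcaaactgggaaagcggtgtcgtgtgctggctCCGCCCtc
Eef1a2: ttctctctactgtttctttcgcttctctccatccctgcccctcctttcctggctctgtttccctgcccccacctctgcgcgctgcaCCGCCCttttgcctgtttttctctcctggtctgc
Each stretch held 1 GC box, in the other orientation (CCGCCC) and within its last 40 bases, and no CCAAT or TATAAA. The Eef1a1 stretch was 75.8% G or C with long runs of G on this strand, and that of Eef1a2 57.5% with runs of C and T. Over the 250 bases upstream, 72.0% of 50 members with a RefSeq promoter held a GC box on either strand, against 35.4% of all 27025 genes in the table, which also lists many predicted genes (symbols with Gm). For 63 ribosomal protein genes the share with a GC box was 50.8%. No share over expressed genes alone was taken. CCAAT was found for 30.0% of the 50 members and 37.5% of all genes.

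Eef1b2, Eef1d and Eef1g encode the exchange complex that recharges eEF1A. Eef1d ran from 65.4 to 85.3 CPM with a median of 73.6 in the 6 P3 libraries, and from 51.8 to 63.9 with a median of 54.0 at P9. The ages did not overlap, and the mean was 1.34-fold lower at P9 (log2 fold change -0.42 ± 0.076, SE; adjusted p = 0.000301). Eef1b2 fell by 1.22-fold from 95.2 ± 14.8 to 77.8 ± 8.26 CPM with overlap (adjusted p = 0.0296), and missed the threshold without P3 replicate 1, 4 or 6 or P9 replicate 2, 4 or 6 (adjusted p from 0.0573 to 0.0866). Eef1g did not pass (log2 fold change 0.03, 95% interval -0.17 to 0.24). Eef1e1, despite its name a scaffold of the tRNA synthetase complex, had a lowest, median and highest level of 6.51, 10.4 and 15.4 CPM at P3, against 11.3, 14.3 and 17.1 at P9. It rose by 1.38-fold at the edge of the threshold (adjusted p = 0.0487). Leaving out P3 replicate 1, 2, 3 or 5, or 1, 2, 4 or 5 of P9, ended that call (adjusted p from 0.0595 to 0.105), as did each other scaling tried (0.0508 to 0.0564).

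Eef2, the translocase, stood between 971 and 1305 CPM at P3 (median 1083) and between 1003 and 1137 CPM at P9 (median 1112). The ages overlapped almost fully, and the log2 fold change was -0.03 (95% interval -0.21 to 0.15). Eef2k, the kinase that inactivates eEF2, ran from 10.4 to 18.6 CPM with a median of 13.0 in the 6 P3 libraries, and from 10.7 to 15.7 with a median of 13.9 at P9, with a log2 fold change of 0.04 (95% interval -0.27 to 0.36). Of the methyltransferases, Eef2kmt was at 12.2 and 12.5 CPM. Eef1akmt2 had a log2 fold change of 0.18, and Eef1akmt1 of 0.53 (adjusted p = 0.0876; 0.0168 without P3 replicate 6). None of these 4 modifiers passed edgeR's threshold, DESeq2 and limma-voom called 0 too, and 1, Eef1akmt1, had an unadjusted p of 0.04998.

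The balance of paralogs was compared within each library for 8 pairs, which needs no scaling between libraries and in which gene length cancels between ages. In 4 of the 8 pairs the ages did not overlap. How often ratios of other gene pairs separate was not tested. Of all tested genes taken singly, 31.7% were fully separated. Eef1a2 over Eef1a1 had a log2 ratio of -6.97 ± 0.22 at P3 and -4.70 ± 0.37 at P9 (SD, n = 6), a difference of 2.27 (exact permutation test, two-sided, p = 0.00216, adjusted p = 0.00433). On the linear scale that difference between the mean log2 ratios is 4.84-fold. Uncorrected for gene length, there were on average 0.804 Eef1a2 counts per 100 of Eef1a1 at P3 and 3.95 at P9. Eif4e3 over Eif4e had a log2 ratio of -3.76 ± 0.33 at P3 and -2.89 ± 0.31 at P9 (SD, n = 6), a difference of 0.87 (exact permutation test, two-sided, p = 0.00216, adjusted p = 0.00433). Eif1a over Eif1ax had a log2 ratio of -1.45 ± 0.20 at P3 and -0.99 ± 0.09 at P9 (SD, n = 6), a difference of 0.45 (exact permutation test, two-sided, p = 0.00216, adjusted p = 0.00433). Eif4g3 over Eif4g1 had a log2 ratio of 0.05 ± 0.07 at P3 and 0.33 ± 0.07 at P9 (SD, n = 6), a difference of 0.29 (exact permutation test, two-sided, p = 0.00216, adjusted p = 0.00433); relative to Eif4g1, Eif4g3 was higher at P9 by 1.22-fold. In these 4 pairs p = 0.00216 is the smallest that the exact permutation test of 6 against 6 can give. Each of the 4 passed in all 12 repeats of the test that left out a library.

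The other 4 pairs did not pass. Eif5a2 over Eif5a differed by 0.25 on the log2 scale (exact permutation adjusted p = 0.185), both genes having risen. Eif4a2 over Eif4a1 differed by 0.03 and Eif1b over Eif1 by -0.03 (adjusted p = 0.745 for each). Eif3j2 over Eif3j1 differed by -0.49 (adjusted p = 0.159), with SDs of 0.54 and 0.35 at P3 and P9.

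**Figure D4:**
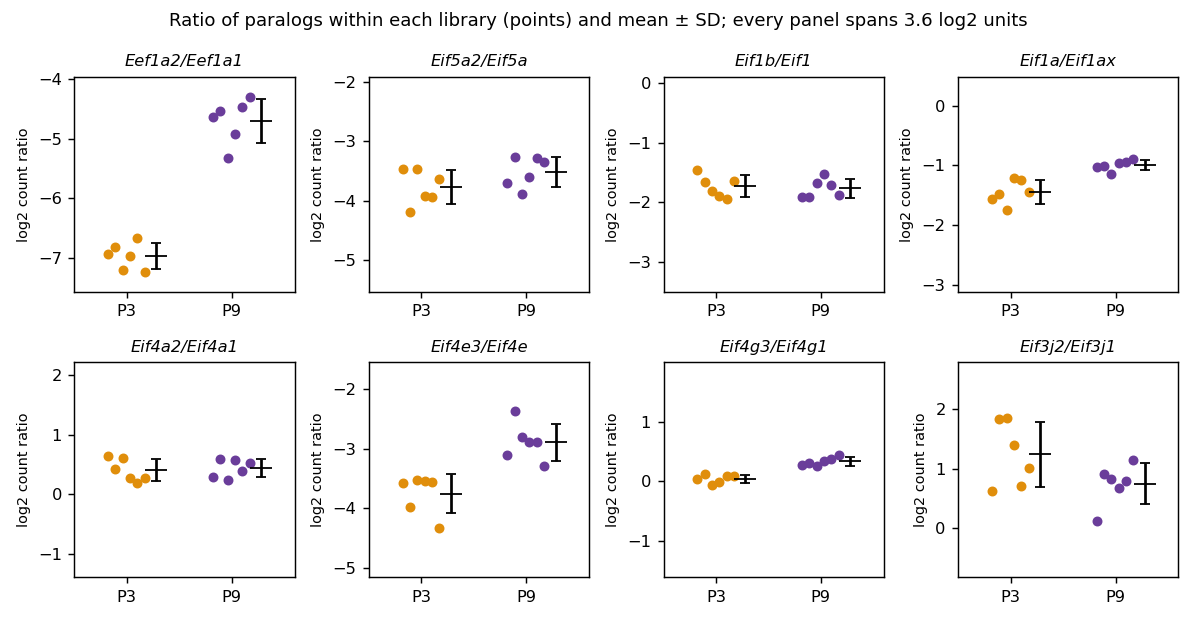
Log2 ratio of the counts of each paralog pair (vertical axes, each spanning 3.6 log2 units) in the 6 libraries of P3 (orange) and of P9 (purple), with the mean ± SD in black. The ages do not overlap for Eef1a2/Eef1a1, Eif1a/Eif1ax, Eif4e3/Eif4e and Eif4g3/Eif4g1, and overlap for the other 4 pairs.

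Other genes of the translation pathway were read from the same fit. Of 81 on 7 lists, 17 rose, 19 fell and 45 did not pass, with a median log2 fold change of -0.024. The share called was 44.4%, against 51.8% of all tested genes (26.1% rose and 25.6% fell), which is also the background for the counts of each list. Among partners of the poly(A) tail and of scanning helicases, 6 of 10 fell and the other 4 did not pass, with a list median of -0.20 on the log2 scale. Pabpc1, the main poly(A)-binding protein that eIF4G holds, fell from 365 ± 30.8 to 258 ± 16.1 CPM (SD, n = 6 each; adjusted p = 4.46e-05) and its relative Pabpc4 fell from 73.4 ± 5.08 to 58.6 ± 4.796 CPM. In the axis of eIF4E kinases and S6 kinase, 2 of 8 rose and 1 fell. Mknk1, which phosphorylates eIF4E on the eIF4G scaffold, rose from 29.3 ± 3.18 to 64.6 ± 8.72 CPM (adjusted p = 4.89e-07), and Cyfip2, a partner of FMRP, from 124 ± 19.3 to 199 ± 17.2 CPM. The gene that fell was the other eIF4E kinase, Mknk2, named after its values were seen, from 77.1 ± 5.04 to 51.9 ± 7.09 CPM. Eif4ebp1, left out by the naming rule, had a log2 fold change of 0.13 (adjusted p = 0.727).

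On the list for the integrated stress response, which holds genes upstream as well as downstream of eIF2 alpha, 5 of 13 rose and 1 fell. Atf4, the transcription factor of this response, rose from 166 ± 12.8 to 224 ± 16.6 CPM and its target Asns, asparagine synthetase, from 10.1 ± 1.52 to 17.8 ± 1.96 CPM (SD, n = 6 each). The gene that fell was the GCN2 partner GCN1 (listed as Gcn1l1), named after its values were seen, from 504 ± 127 to 269.8 ± 51.8 CPM. Among termination and recycling factors 2 of 9 rose and 1 fell: of the ribosome rescue partners, Pelo rose from 5.80 ± 1.37 to 9.40 ± 1.59 CPM and Hbs1l fell from 96.0 ± 8.53 to 65.6 ± 3.87 CPM. Of 10 enzymes that modify the factors, 1 rose and 3 fell. Mettl13, which methylates eEF1A, fell by 2.03-fold (adjusted p = 8.47e-05), and Dph1, of the diphthamide pathway that modifies eEF2, rose by 1.36-fold. Mitochondrial translation factors rose in 2 of 9 cases and did not pass in 7; Gfm1, the mitochondrial translocase, rose by 1.33-fold and Mtif3, an initiation factor, by 1.35-fold. Of 22 genes of cytosolic tRNA synthetases and their scaffolds, 5 rose and 7 fell, Vars by 1.79-fold and Lars by 1.36-fold.

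Ribosomal protein genes, the other part of the machinery, numbered 82 tested by name, of which 23 fell and 2 rose, with a median log2 fold change of -0.18. The share called was 30.5%, below the 51.8% of all tested genes, of which 25.6% fell and 26.1% rose. Rps12 fell from 39.0 ± 7.18 to 21.8 ± 0.829 CPM (SD, n = 6 each) and Rpl12 from 40.2 ± 7.73 to 25.1 ± 3.02 CPM. The 2 that rose were the tissue-restricted variants Rps4l and Rpl3l, named after their values were seen, to means of 12.1 and 3.05 CPM. These genes have many near-identical copies, so their expected counts are uncertain.

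**Figure D5:**
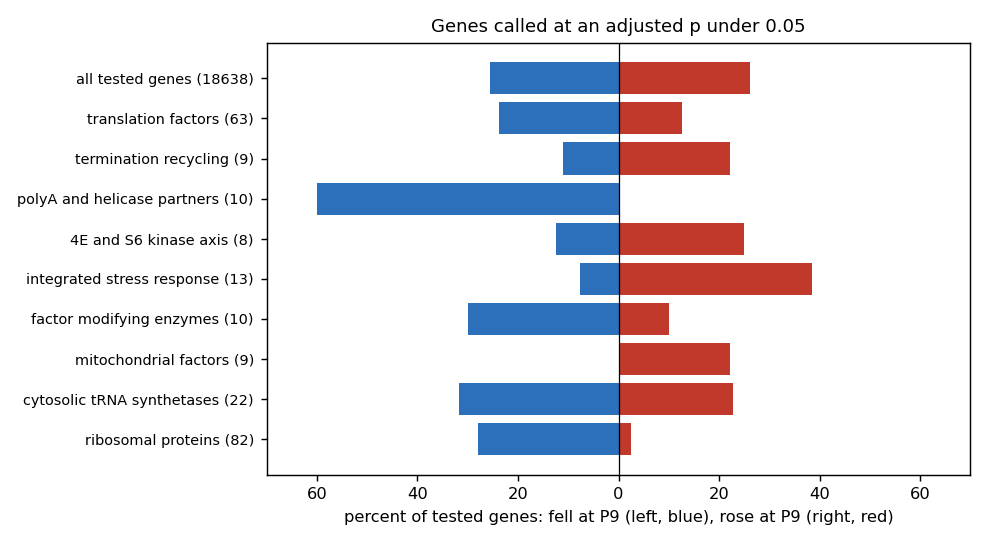
Percent of tested genes that fell (blue, to the left) or rose (red, to the right) at P9 at an adjusted p under 0.05, for all tested genes, the translation factors and 8 lists of related genes, with the number tested in parentheses. The translation factors show 8 risers and 15 fallers of 63, and the ribosomal proteins 2 and 23 of 82.

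Many mRNAs of the translation machinery begin with a run of pyrimidines, the terminal oligopyrimidine (TOP) motif, through which mTOR controls their translation. A run of at least 6 C or T that opens with C was sought on the coding strand from 10 bases before to 20 bases after each RefSeq start. It was present at any listed start for 14 of 50 members (28%), close to the 24.9% of all 27025 genes, and for 37 of 63 ribosomal protein genes (58.7%). By call, it was present for 1 of 5 members that rose, 4 of 14 that fell and 9 of 31 that did not pass. RefSeq starts are not measured here and may miss the true first base. The windows of 30 bases shown are those of the 4 members whose run begins in the 5 bases before the start and extends past it, with the run in capitals: Eef1a1 at chr9:78481705-78481734 (minus strand), Eif2s3x at chrX:94212632-94212661 (minus strand), Eif3f at chr7:108934405-108934434 (plus strand) and Eif3l at chr15:79075213-79075242 (plus strand).
Eef1a1: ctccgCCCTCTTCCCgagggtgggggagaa
Eif2s3x: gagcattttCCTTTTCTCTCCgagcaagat
Eif3f: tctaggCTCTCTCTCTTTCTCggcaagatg
Eif3l: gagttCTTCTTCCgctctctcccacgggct
Of these, Eef1a1 and Eif3l fell, and Eif2s3x (95% interval of the log2 fold change -0.25 to 0.49) and Eif3f (-0.22 to 0.25) did not pass. Whether the 4 differed from each other was not tested. A run of 14 bases also crossed the start of Eif2b5. It began at the edge of the window, 10 bases before the start, and is not shown.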

How the data were processed

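The authors deposited RSEM expected counts for each gene, model-based read numbers without depth scaling. The submitters' processing notes name RSEM, STAR, limma, FastQC and Trim Galore with mm10; versions, roles and annotation are unstated in the sources used here. Of the deposited counts 15.9% were not whole. Counts were rounded, filtered with filterByExpr (18638 genes kept, 34452 removed), scaled by TMM and tested by edgeR's quasi-likelihood F-test, version 4.0.16 (R 4.3.3), Benjamini-Hochberg adjusted, threshold 0.05. Log2 fold changes are P9 over P3, and 95% intervals use the standard error, the change divided by the square root of F. Groups came from the age label; replicate numbers follow deposition order. The labels of P9 replicates 5 and 6 carry crossed names in title and file, so which of these 2 libraries is which is uncertain; both are P9, and no P9 against P3 comparison of all libraries depends on it.

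The members, lists and pairs were chosen with earlier results of these data known. Values by library were given for the 8 largest rises and falls among called members of at least 1 CPM, the paralog pairs, Eif4ebp2, Eif2s1, Eif4g2, Eif6, Eef2 and Eef2k; each pathway list names the 2 smallest adjusted p. Pair ratios, with 0.5 added to counts, were compared by an exact two-sided permutation test, adjusted over 8 pairs. Alternatives were 3 scalings, 2 filters, DESeq2 1.42.0, limma-voom (limma 3.58.1), a robust fit, a threshold of 0.01 and libraries left out. The procedure was tested on simulated data in which few genes changed. In these data 51.8% of genes were called, a setting that the simulation did not cover. Coordinates and sequences are RefSeq's on GRCm38.p6 (mm10), matched by symbol (66 of 66 members; 50 of 63 with a promoter).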

Additional observations from a re-analysis of the deposited data

Results flagged for a closer look

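In 142 sets of 6 libraries (63 members and 8 pair ratios at each age), a single library stood far from the other 5 in 3 sets, or 2.11%, where chance gives about 1 in 20. Eef1akmt1 was at 10.8 CPM in P9 replicate 1 and between 6.13 and 7.56 in the other P9 libraries. Eef1d was at 63.9 CPM in P9 replicate 3 and between 51.8 and 56.0 in the others, still below every P3 library. Eif3d was at 83.8 CPM in P9 replicate 2 and between 91.9 and 95.7 in the others.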

How the results depend on the processing

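Over 23 alternatives the number of members that rose lay between 6 and 10 and the number that fell between 9 and 15. Without single libraries these were 7 to 10 and 12 to 15. The 9 that fell came from an adjusted p under 0.01, against 15 at 0.05. Among the other pathway genes 19 fell, and 12 did both at an adjusted p under 0.01 and without P9 replicates 5 and 6. All 23 called members were called in the same direction by DESeq2, limma-voom and the robust fit, and 19 of 23 in each fit without a single library; the exceptions, Eif2ak1, Eif3l, Eef1b2 and Eef1e1, also missed the threshold with no low-count filter. No named member that was called changed sign under any alternative run. The median log2 fold change of all genes stayed between -0.034 and 0.013 under all settings. With the 3 other scalings the median of the members lay between -0.022 and -0.0057, against -0.011 in the main fit. Of the 23 calls, 22 were kept with median-ratio and with upper-quartile factors and 21 with library totals only. Those lost were Eef1e1 each time and Eif3l with library totals only. The share of members called, 28.6% to 39.0% at a threshold of 0.05, was below that of all tested genes in each fit but the one with no low-count filter (30.2% against 27.4%), where 34218 genes were tested. No paired analysis was possible because no replicate numbers link P3 and P9 samples in the labels. Depth limits the members under 10 CPM (Eif2ak2, Eif4e3, Eif4ebp3 and Eef1akmt1), and those whose counts were not whole in any library (19 of 63) depend on how RSEM shared reads.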
